A study of Mus musculus with 6 samples.

Results

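The 24611 peaks described here are the Runx1 ChIP-seq peaks of uninjured (sham) mouse lung fibroblasts on chromosomes 1 to 19. They were taken from the sham peak list by chromosome alone, out of 25059 sham peaks on all chromosomes and 96399 peaks over the 3 lists of the series. The series holds 6 libraries, a Runx1 ChIP and an input from each of 3 conditions. The condition used here is sham injury, and the others are D14 and D56 after intratracheal bleomycin, which injures the lung. All came from lungs of Col1a2-CreERT2;mTmG mice. In these animals the Col1a2 promoter drives a Cre recombinase that acts after tamoxifen, and recombined cells change from red to green fluorescence, so the GFP+ gate takes cells that had used that promoter, whatever else they are. Cells were fixed in formaldehyde, and chromatin was precipitated with a Runx1 antibody (Abcam ab23980). How many mice gave the sham cells, and when these were collected, the sources do not say. Each condition has 1 ChIP library, so no value below has a replicate check and no test was made. The sham ChIP library held 48816721 tags and its input 39609538, per the file headers.

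RUNX1 is a DNA-binding transcription factor with a Runt domain, which pairs with the non-DNA-binding partner CBFB and recognises a short site with the core TGTGGT. It activates some genes and represses others through co-repressors of the TLE and CBFA2T families. It is best known in blood formation, while RUNX2 is the bone-forming member of the family. In fibroblasts RUNX factors share enhancers with AP-1, the dimers of the FOS and JUN families.

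Of the 24611 regions, those at gene starts were the widest and highest as a class, so 5 promoter windows are shown to make the letters under such peaks visible. They were chosen after their values were seen, for the peak of highest fold (Lamp1), the highest peak at a cell cycle gene (Cdk4), a dense cluster (Atf3) and both starts of Runx1 itself. Each runs 5′ to 3′ along the gene's strand from 250 bases before the start to 50 after it, from RefSeq on GRCm38.p6. Capitals mark 4 motifs on either strand, the RUNX core TGTGGT (read as ACCACA from the other strand), the GC box GGGCGG, the NF-Y box CCAAT, and the E-box CACGTG.
Lamp1, chr8:13158911-13159210, plus strand: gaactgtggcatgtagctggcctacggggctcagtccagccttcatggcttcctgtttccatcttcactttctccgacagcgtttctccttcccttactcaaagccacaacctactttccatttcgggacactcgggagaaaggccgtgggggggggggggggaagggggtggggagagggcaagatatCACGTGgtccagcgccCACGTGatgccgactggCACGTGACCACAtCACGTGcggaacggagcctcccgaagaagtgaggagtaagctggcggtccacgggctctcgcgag
Cdk4, chr10:127063285-127063584, plus strand: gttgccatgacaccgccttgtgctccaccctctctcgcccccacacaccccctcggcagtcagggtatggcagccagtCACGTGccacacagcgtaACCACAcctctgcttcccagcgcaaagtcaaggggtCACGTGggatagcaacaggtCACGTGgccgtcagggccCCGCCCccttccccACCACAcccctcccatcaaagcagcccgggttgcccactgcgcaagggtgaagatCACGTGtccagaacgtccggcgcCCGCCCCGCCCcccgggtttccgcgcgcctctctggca
Atf3, chr1:191183284-191183583, minus strand: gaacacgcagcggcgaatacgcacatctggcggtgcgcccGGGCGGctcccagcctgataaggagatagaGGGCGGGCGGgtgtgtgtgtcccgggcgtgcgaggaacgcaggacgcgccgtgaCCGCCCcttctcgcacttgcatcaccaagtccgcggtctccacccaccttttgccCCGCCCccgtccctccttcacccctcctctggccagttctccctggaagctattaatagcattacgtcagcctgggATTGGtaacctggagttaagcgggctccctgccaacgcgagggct
Runx1 upstream start, chr16:92826025-92826324, minus strand: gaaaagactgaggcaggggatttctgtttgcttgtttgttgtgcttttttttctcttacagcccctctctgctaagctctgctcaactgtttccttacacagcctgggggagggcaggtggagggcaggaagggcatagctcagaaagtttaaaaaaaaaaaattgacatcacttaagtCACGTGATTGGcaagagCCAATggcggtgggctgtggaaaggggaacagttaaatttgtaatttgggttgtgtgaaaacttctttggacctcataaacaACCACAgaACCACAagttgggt
Runx1 inner start, chr16:92697280-92697579, minus strand: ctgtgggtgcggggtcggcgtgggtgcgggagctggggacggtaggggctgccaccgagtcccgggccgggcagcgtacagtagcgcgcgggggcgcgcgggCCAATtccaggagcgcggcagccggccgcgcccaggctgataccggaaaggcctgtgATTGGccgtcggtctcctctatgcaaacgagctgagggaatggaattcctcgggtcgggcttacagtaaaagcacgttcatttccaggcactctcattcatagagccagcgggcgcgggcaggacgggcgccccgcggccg
The Lamp1 window held 4 copies of the E-box, a site of basic helix-loop-helix factors, beside 1 copy of the RUNX core. The Cdk4 window also held 4 copies of the E-box, with 2 of the RUNX core and 3 of the GC box. The Atf3 window held 5 copies of the GC box, some overlapping, and none of the RUNX core. The upstream Runx1 start held 2 copies of the RUNX core, 2 CpG dinucleotides and no peak. The inner Runx1 start held 35 CpG dinucleotides, no RUNX core, and a peak with a pileup of 109.

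At the genes of the RUNX pathway, 11 of 12 listed members had a peak in the gene or within 10 kb of it, beside 62.3% of all protein-coding genes. Runx1 had 4 peaks. Pileup here means the fragment depth at a summit as scaled by the caller. The highest Runx1 peak, at chr16:92697150-92697897, had a pileup of 109 and a fold enrichment over local background of 10.0. Its summit lay 68 bp from the inner start. The others had pileups of 17, 47 and 31, and the peaks of 47 and 31 lay beside it. Runx2 had 3 peaks with pileups of 18, 29 and 74, the last with a fold of 10.1. Cbfb, the partner subunit, had 3 peaks with pileups of 56, 27 and 42. Runx3 had none. The highest pileups of the list stood at the TLE co-repressor genes, Tle4 with 133, Tle3 with 129 and Tle1 with 117, and Cbfa2t2 had 79. The 12 genes held 35 peaks in all, a median of 3 per gene, against a median of 1 over all coding genes. These genes are long, with a median of 82.6 kb against 17.5 kb over all coding genes. Genes of their length had a peak in 72.9% of cases.

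The peaks covered 10.81 Mb. Their median width was 360 bp, with quartiles of 249 and 539.5 bp and a range of 166 to 9105 bp, the lower end being the fragment size of 166 bp that the caller used. The median pileup was 36, with quartiles of 26 and 56 and a range of 14 to 950. The median fold was 5.07, with quartiles of 4.04 and 6.96 and a range of 2.03 to 35.1. Most summits were central, as 88.4% lay nearer the midpoint of their peak than either edge. Width and pileup went together across peaks (Spearman rho 0.758, n = 24611). This describes 1 library, where the caller's threshold links the measures.

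Pileup tracked position as well as width. With the peaks in 10 equal groups by pileup, in the lowest group, from 14 to 21, the median width was 207 bp and 20.3% of summits lay within 1 kb of a gene end. In the highest group, from 82 to 950, the median width was 741 bp and 79.8% lay that close. The share with another peak within 10 kb did not follow one direction. It was 49.8% in the lowest group, highest in the fourth at 57.4%, and 45.6% in the highest group.

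**Figure D1:**
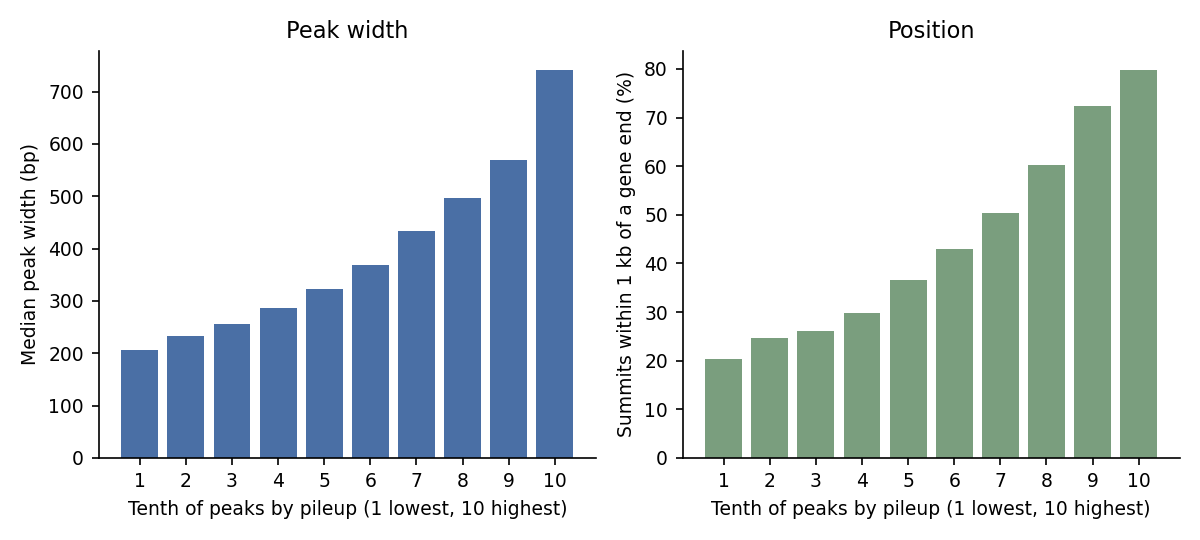
Median peak width in bp (left) and share of summits within 1 kb of an annotated gene end in percent (right), for 10 equal groups of the 24611 sham peaks ordered by pileup. Both are higher in every group than in the one before it, from 207 bp and 20.3% in the lowest to 741 bp and 79.8% in the highest.

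The 15 peaks of highest pileup fell into 2 kinds by fold. In 6 of them the fold was 17.1 to 35.1, and in the other 9 it was 3.02 to 6.90. The local background was approximated as the pileup divided by the fold. It was 7.58 to 13.9 at the 6 and 43.8 to 204 at the 9, against a median of 7.16 over all peaks. The background at those 9 sites was several times that median, and its part in their pileups was not tested. Such a background was not confined to them, since the next peak by pileup, in Camk1d, had 47.5.

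Among the 9 of low fold was the highest peak of all, at chr17:39842998-39848823, with a pileup of 950, a fold of 4.67 and a width of 5826 bp. Its summit lay 2996 bp from an end of Rn18s-rs5, a gene related to 18S ribosomal RNA. The peak is wider than that distance, and whether it overlaps the gene was not examined. The second, at chr9:123461844-123462151 inside Lars2, a mitochondrial leucyl-tRNA synthetase gene, had a pileup of 528 and a fold of 5.04. The third, at chr3:5860523-5860819, had a pileup of 415 and no coding gene within 100 kb. Others stood in Filip1l (357), Zc3h7a (289) and Cdk8 (242), at 3 bp from an end of Hjurp (302), and 61 kb from Axin2 (264). The other of the 9, at chr6:3201336-3201636, had a pileup of 285 and no named coding gene within 100 kb. Its summit lay 2996 bp from an end of the unnamed gene model LOC115490388. Of these 9 summits, 2 lay within 1 kb of a coding gene end.

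The 6 of high fold stood at or near gene ends, 4 of them within 100 bp of a coding gene. The peak at Lamp1, a lysosomal membrane protein gene, lay at chr8:13158661-13159594 with a pileup of 266 and the highest fold of the list, 35.1. Its summit was 18 bp from the gene start printed above. The peak at Cdk4, the cyclin D partner kinase, had a pileup of 222 and a fold of 20.3, at 71 bp from the start printed above. Rnf44, a RING finger gene, had a pileup of 245 and a fold of 17.6. The peak beside Neat1, the RNA that builds paraspeckles, had a pileup of 283, a fold of 23.2 and a width of 3448 bp. Its nearest coding gene was Frmd8. The last had its summit 1939 bp from an end of Zfp36, which encodes an mRNA decay factor, with a pileup of 197 and a fold of 17.1. Among the 5 highest folds of the list were also those at Pip4p1 (25.6), Hnrnpa3 (24.0) and Amdhd2 (23.8), each within 100 bp of the gene end.

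**Figure D2:**
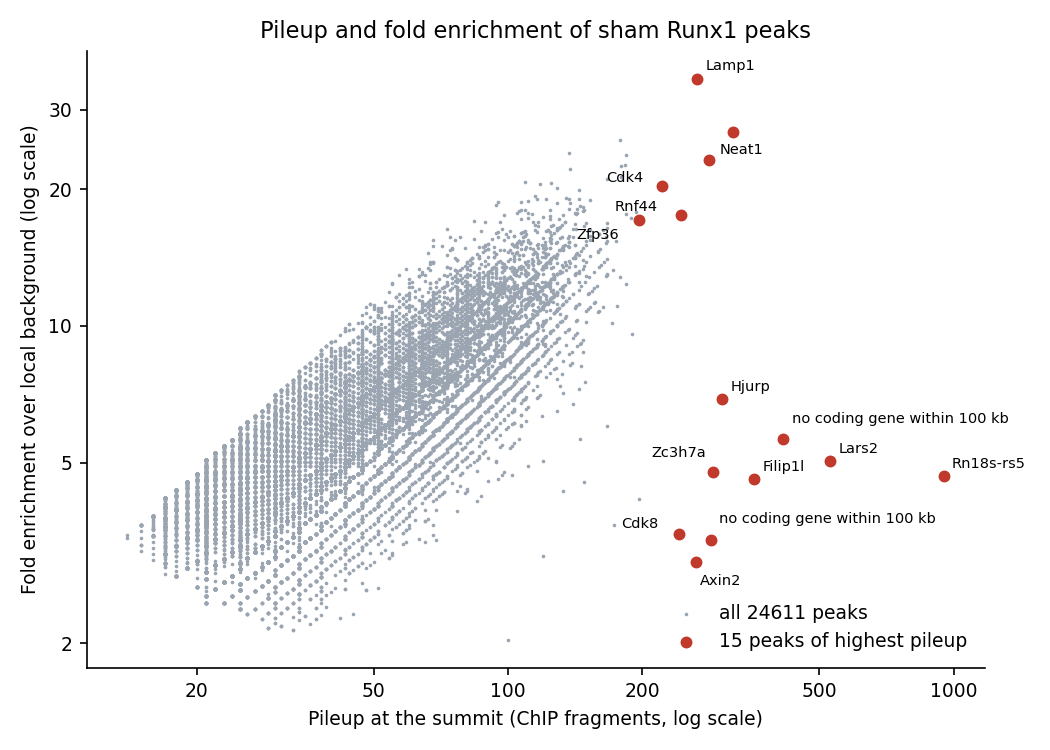
Pileup at the summit (x axis, ChIP fragments as scaled by the caller, log scale) of the 24611 sham peaks. The y axis gives their fold enrichment over local background (log scale). The 15 of highest pileup are in red, and those described in the text are labelled by the nearest gene. Unnamed gene models were passed over in the labels. The 6 red points at folds of 17.1 to 35.1 continue the cloud of the other peaks, while the 9 at folds of 3.02 to 6.90 stand below and to the right of most of it.

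Several of the widest peaks stood at immediate-early genes, the first to be transcribed after a stimulus. Egr1, a zinc-finger factor of that kind, carried the widest at 9105 bp, with a pileup of 146 and a fold of 8.17. Fosb, a FOS subunit of AP-1, carried a peak of 9004 bp at chr7:19300092-19309095, with a pileup of 86 and a fold of 9.67. Erf, an ETS-family repressor, followed with 6669 bp, and Junb, a JUN subunit of AP-1, with 5951 bp, a pileup of 167 and a fold of 12.9. The fifth was the peak of highest pileup, with its summit near Rn18s-rs5. Peaks of 1 kb or more numbered 1055, or 4.29%, and those of 2 kb or more numbered 67. Of those 67, 22 (32.8%) had as nearest coding gene 1 of the 43 genes on the AP-1 and immediate-early lists, against 336 of all peaks (1.37%). These 22 lay at 12 genes, among them Fos (4060 and 3626 bp), Jun (3930 bp) and Nr4a1 (3555 bp). The share among wide peaks was counted after the widest peaks were seen.

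Summits gathered at gene ends. Of all summits, 23.9% lay within 100 bp of an annotated gene end, 44.3% within 1 kb (95% Wilson interval 43.7 to 44.9%) and 72.7% within 10 kb, with a median distance of 1728 bp. Against protein-coding genes alone, 38.7% lay within 1 kb and the median distance was 4026 bp. A further 32.4% lay inside a coding gene beyond 1 kb of its ends, and 28.9% outside coding genes beyond 1 kb. Distant peaks were not rare, since 2227 (9.05%) lay over 100 kb from a coding gene end and 123 over 500 kb. Intervals here cover counting error only.

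Peaks near coding gene ends were higher and wider than the rest of the list. Their median pileup was 51, against 30 both inside genes and outside them. Their median width was 445 bp, against 318 bp inside genes and 315 bp outside, and their median fold was 6.14, against 4.74 and 4.66. They had a neighbour within 10 kb in 44.3% of cases, against 58.4% inside genes and 54.7% outside.

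Gene ends here meant gene starts in nearly all cases. The direction of transcription was known for 16456 coding genes on 18 chromosomes, which hold 23805 of the peaks. Of those peaks, 35.1% lay within 1 kb of a start and 21.4% within 100 bp, while 1.59% lay within 1 kb of a 3′ end and of no start. The median summit near a start lay 48 bp upstream of it, with quartiles of 107 bp upstream and 8 bp downstream. Between 1 and 250 bp upstream lay 5330 summits, and from the start to 250 bp downstream lay 1582. Peaks at starts had a median pileup of 53 and a median fold of 6.23, against 33 and 4.62 at 3′ ends.

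**Figure D3:**
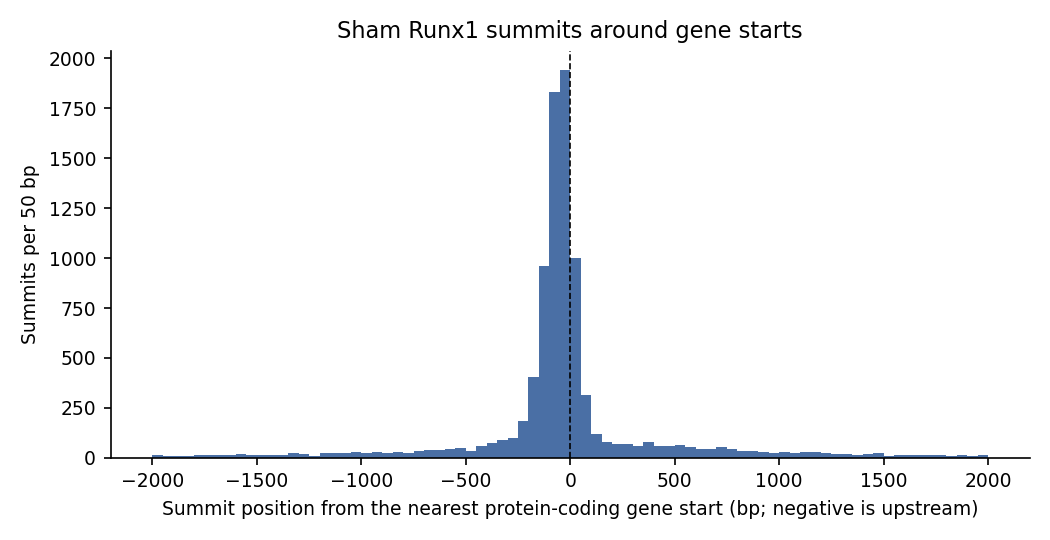
Number of sham Runx1 summits per 50 bp (y axis) by position from the nearest protein-coding gene start in bp (x axis, negative is upstream), within 2000 bp either side. The summits form 1 narrow peak just upstream of the start, and 72.0% of those within 1 kb lie upstream.

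Promoters with a peak were rich in CpG and in GC boxes, and the RUNX core was less common in them than in all promoters without one, an order that turned round in most groups of like CpG content. A peak met 8926 of 20084 promoter windows of 300 bp (44.4%). Windows with a peak held a median of 23 CpG dinucleotides, against 5 in those without, and their median GC content was 63.0%, against 51.0%. TGTGGT stood in 10.6% of windows with a peak, 18.1% of those without and 14.8% of all. The letters TGGTGT, the same core written backwards and added after these values were seen, stood in 8.97% of windows with a peak and 12.3% of all. TGANTCA, the AP-1 site, stood in 4.04% with a peak, 9.46% without and 7.06% of all. The GC box stood in 72.7% with a peak, 26.5% without and 47.0% of all, and CCGGAAGT, an ETS site, in 10.3%, 1.26% and 5.28% in the same order. The E-box stood in 11.3%, 5.19% and 7.89%, and the NF-Y box in 40.4%, 36.3% and 38.1%. Both strands were searched, and none of these motifs contains another.

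CpG content moved with most of these shares, so windows were also grouped by it, a choice made after the shares were seen. A peak met 3.49% of windows with 0 to 5 CpG dinucleotides, 20.7% of those with 6 to 10, 54.6% with 11 to 15, 70.6% with 16 to 20, 78.1% with 21 to 30 and 79.6% with over 30. Within these groups the order of the RUNX core shares was mostly the other way from the pooled one, since TGTGGT was more common with a peak in 4 of the 6 groups. It stood in 14.0% of windows with a peak and 12.8% without at 11 to 15 CpG dinucleotides, in 12.1% and 11.8% at 16 to 20, in 10.2% and 8.44% at 21 to 30, and in 6.0% and 4.4% at over 30. At 6 to 10 it stood in 18.1% with a peak and 18.2% without, and at 0 to 5 in 16.8% and 22.3%. The backward core TGGTGT was more common with a peak in 3 of the 6 groups, those of 6 to 10, 21 to 30 and over 30. It stood in 8.61% of windows with a peak and 7.31% without at 21 to 30, and in 5.40% and 3.36% at over 30. In these last groups the order was thus not particular to the RUNX core. At 11 to 15 the backward core went the other way, with 12.4% and 15.6%, as it did at 16 to 20, with 10.3% and 11.9%, and at 0 to 5. The ETS site stood in 11.4% with a peak and 4.98% without in the 16 to 20 group.

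Across promoters with a peak, the share with the RUNX core changed little with fold, while the shares of some other motifs were higher at higher fold. With the windows in 4 equal groups by the fold of their peak, the share with TGTGGT was 11.4%, 9.64%, 10.9% and 10.3% from the lowest group to the highest. The GC box stood in 63.5% of the lowest group and 80.6% of the highest, and the NF-Y box in 29.7% and 51.3%. Among the 100 promoter windows of highest fold, counted after these values were seen, 32 held the E-box, 65 the NF-Y box, 89 the GC box and 15 the RUNX core. Around the summit, the NF-Y box had 3.86 matches per kb within 50 bp and 1.13 at 150 to 200 bp. The ETS site had 0.677 and 0.0923 matches per kb at the same distances, and the RUNX core 0.288 and 0.363. Summits lie close to gene starts, where base composition also changes, and its part in these densities was not tested. Letters under peaks away from promoters were not analysed here.

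About as many peaks had a near neighbour as stood alone, and long runs were few. Over 24592 adjacent pairs the median gap was 24.5 kb, with quartiles of 5.29 and 73.1 kb. Another peak lay within 10 kb of 51.9% of peaks (95% Wilson interval 51.3 to 52.5%). Chains with gaps of 10 kb or less gave 11844 single peaks, 2950 pairs and 1653 clusters of 3 or more, which held 27.9% of the peaks. Only 50 clusters had 10 or more peaks. Between neighbours, 9.63% of gaps were under 500 bp, where a broad region split by the caller and separate sites cannot be told apart. Merging these lowers the share with a neighbour to 42.4%. Peaks of the clusters of 10 or more had a median fold of 4.35 and a median pileup of 31, against 5.27 and 37 for single peaks. Of them 30.8% lay within 1 kb of a gene end, against 49.5% of single peaks.

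The cluster with most peaks held 50 over 65.1 kb at chr19:5786570-5851684. It spans Neat1, Malat1 and Frmd8, and peaks covered 43.8% of it. Neat1 and Malat1 encode abundant nuclear RNAs. The next in rank had 29 peaks each and lay at Atf3, Hoxa, Fosb and Hoxb. The Atf3 cluster, at chr1:191158687-191186804, was the most compact, with 28.1 kb of which 52.6% was covered. ATF3 is a stress-induced AP-1 partner. Its gene had 27 peaks in its window, 1 with a pileup of 142 and a fold of 16.3 over the start printed above. The other 26 had pileups of 23 to 39 with a median of 29, so the run consisted of 1 high promoter peak and a stretch of low ones. The Fosb cluster, at chr7:19269491-19333084, spanned 63.6 kb with Vasp and Rtn2, and its 4 highest peaks lay past its midpoint. The next cluster, at Dusp1, a MAP kinase phosphatase gene, had 28 peaks over 36.2 kb. Of the 50 clusters of 10 or more peaks, 11 met a gene of the AP-1 or immediate-early lists, as did 30 of the 1653 clusters of 3 or more.

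The Hox clusters did not look alike. HOX factors set position along the body axis, and their genes stand in 4 clusters. The Hoxa genes held 29 peaks with pileups up to 121 and folds up to 17.0, and 9 of 11 had a peak, the exceptions being Hoxa11 and Hoxa13. The Hoxb genes held 30 peaks with pileups up to 81, and 8 of 10 had a peak, the exceptions being Hoxb1 and Hoxb13. None of the 9 Hoxc and none of the 9 Hoxd genes had one. The split by cluster was made after the family counts were seen.

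**Figure D4:**
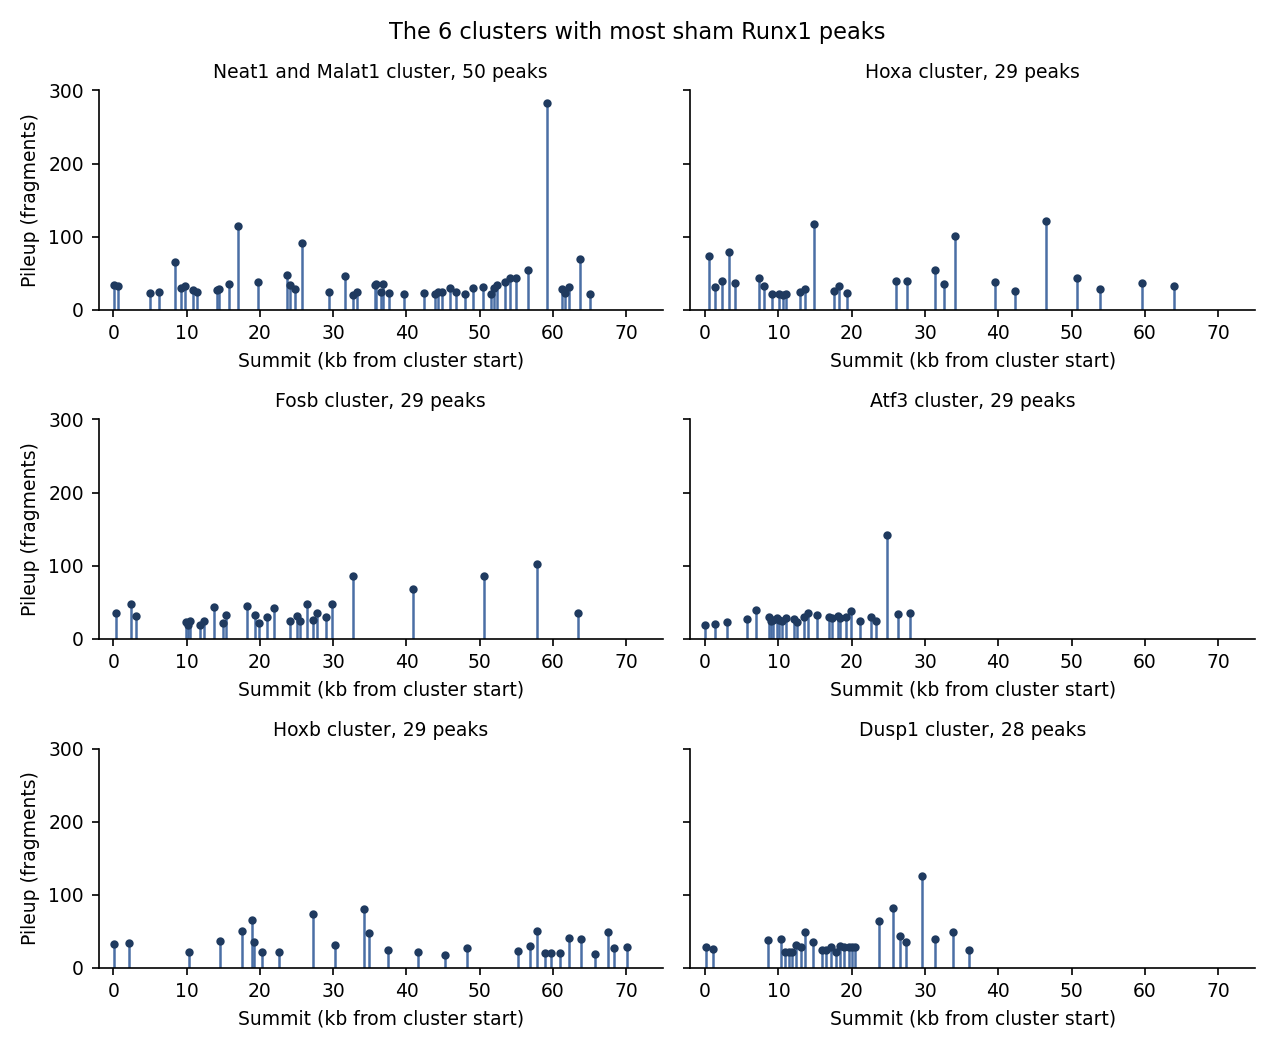
Summit position in kb from the cluster start (x axis) of each peak in the 6 clusters with most sham Runx1 peaks. The y axis gives pileup in ChIP fragments as scaled by the caller. In the Atf3 cluster 1 peak of 142 stands over a run of low ones, while the 2 Hox clusters have several peaks of like height spread over 64.1 and 70.2 kb.

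Long stretches had no peak at all. There were 15 gaps over 5 Mb, and the longest, 12.8 Mb on chromosome 15, held 8 coding genes of which 5 were cadherins (Cdh6, Cdh9, Cdh10, Cdh12 and Cdh18), cell adhesion genes. The next, 8.72 Mb on chromosome 6, held 6 Reg genes, which encode secreted lectins. The third, 7.03 Mb on chromosome 2, held Lrrc4c alone. These gaps were named after they were seen, and how mappable they are was not tested.

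Of 20661 coding genes, 12865 had a peak in the gene or within 10 kb (62.3%, 95% Wilson interval 61.6 to 62.9%), 1011 had 5 or more and 158 had 10 or more. Short genes were hit least, with 15.7% in the shortest of 10 equal groups (median 0.948 kb), 51.0% in the next (3.10 kb) and 78.4% in the last but 1 (77.6 kb). Rad51b, Hoxa3 and Tns1 had 28 peaks each, Atf3 27, Hoxb3 26, Syn3 and Smg6 24, Rtn2 23, and Gse1, Arid5b and Nfia 20. RAD51B acts in recombination repair, TNS1 links integrins to actin, and NFIA is a nuclear factor I. Rad51b spans 551 kb while Atf3 spans 13.0 kb. Rtn2 lies beside Fosb, inside the same cluster. The highest peak in the Syn3 window, with a pileup of 81, was also the highest in the window of Timp3, which had 11 peaks. Of 215 coding genes over 500 kb, 85 had no peak. Among the longest of these, named after they were seen, were Lrp1b (2.06 Mb), Nrxn3 (1.61 Mb), Pcdh15 (1.55 Mb) and Dpp10 (1.51 Mb).

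Families of genes that share a symbol root, a grouping that puts unrelated genes together where the root is short (such as Ap), ranged from all members with a peak to none. Among 151 families of 15 or more members, 7 had a peak at every member and 10 at none, and the median family share was 69.1%. The 7 were Cdc (32 genes, cell division), Ap (28, with the adaptor complexes), Med (28, the Mediator complex), Nup (20, nuclear pore), Atg (17, autophagy), Dhx (16, RNA helicases) and Kdm (15, histone demethylases). Eif, the translation initiation factors, followed with 52 of 53. Genes of the same length as the Med family had a peak in 66.6% of cases, and those of the Kdm family in 74.4%. The families with none and most members were Krtap (56, hair keratin-associated proteins), Defa (29, defensins), Prl (26, prolactins), Mup (24, major urinary proteins), Pcdhb (22, protocadherins), Ugt (22, glucuronosyltransferases), Lce (21, late cornified envelope) and Ceacam (15, cell adhesion molecules), the last tied in size with Esp and Taar. Krtap and Defa genes are short, and genes of their length had a peak in 16.4% and 15.7% of cases. Ugt genes are not, and 70.9% of genes of their length had one. The largest family, the odorant receptors (Olfr), had a peak at 17 of 1104 members (1.54%), against 21.7% of genes of that length.

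The pathway lists sat mostly above the genome-wide share and the marker lists of other cell types below it. Of 24 lists, 16 had a share above 62.3%. All 23 immediate-early and stress genes had a peak, with 155 peaks and a median of 6 per gene, although genes of their length had one in 51.3% of cases. The highest stood at Zfp36 (pileup 197, fold 17.1), Klf6, a zinc-finger factor (167, 21.1), Gadd45b, a stress-response gene (156, 12.1), Nr4a1, an orphan nuclear receptor (153, 14.3), and Btg2, an antiproliferative gene (151, 11.7). Of 20 AP-1, Bach and Maf factors 19 had a peak, the exception being Batf2, with 115 peaks and a median of 4. Fos and Junb (167 each), Jund (160), Batf (150) and Jun (147) were the highest.

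All 22 TGF-beta pathway genes had a peak, where genes of their length had one in 72.9% of cases, with 109 peaks in all. TGF-beta is the main profibrotic cytokine. By the highest pileup in the gene or within 10 kb of it, SMAD co-repressor and latent-binding family genes led. Ski and Skil, co-repressors of SMAD factors, had 143 and 125, Ltbp2 and Ltbp4, of the latent TGF-beta-binding protein family, had 101 and 90, and Smad6, an inhibitory SMAD, had 94. Ltbp2 had 1 of its 3 peaks in the gene itself and none within 1 kb of an end. The BMP list had a peak at 17 of 20, led by the inhibitors of DNA binding Id3 (130), Id2 (98) and Id4 (96), then the ligand Bmp4 (78) and the receptor Acvrl1 (73). Bmp2 and the antagonists Nog and Grem1 had none. All 14 YAP and TEAD genes had a peak, with Wwtr1, which encodes TAZ, at 101, the matricellular target Ccn1 at 95, Tead1 at 94, Nf2 at 84 and Lats1 at 75.

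Most matrix and contractile genes had a peak, beside 62.3% of all coding genes. Genes of the same length had one in 71.4% of cases for the collagen list and 70.4% for the elastic fibre list. For the contractile list it was 69.4%, and for the MMP, ADAMTS and TIMP list 67.1%. The highest pileup of each list was below that of the immediate-early list. Of 21 collagen and collagen assembly genes 19 had a peak, the exceptions being Col11a1 and P4ha3. The highest were at Loxl3, a lysyl oxidase (107), P4ha1, a prolyl hydroxylase subunit (102), Serpinh1, the collagen chaperone (101), and the type I collagen genes Col1a2 (95) and Col1a1 (94). Col1a2, whose promoter marks these cells, had 3 peaks with pileups of 33, 95 and 28. Of 13 elastic fibre genes 12 had a peak, led by Eln (98), Mfap4 (82), Emilin1 (82), Efemp2 (81) and Fbn1 (71), while Fbn2 had none. All 19 contractile and focal adhesion genes had one, led by Vcl (120), Mrtfa (117), Zyx (116), Srf (94) and Actg2 (74). Acta2, smooth muscle actin, named here after its value was seen, had 2 peaks with a highest pileup of 32. The MMP, ADAMTS and TIMP list had a peak at 13 of 17 (76.5%). Within 1 kb of a gene end 8 of 17 had one, just below the 47.2% of all coding genes. The proteases Adamts9 (129), Adamts1 (115), Adamts2 (95), Adamts4 (86) and Mmp19 (86) led it, and Mmp3, Mmp9, Mmp23 and Timp4 had none. At Loxl3, Actg2 and Mmp19 all peaks lay in the 10 kb flanks, outside the gene.

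Signalling and regulatory lists also lay above the 62.3% of all coding genes. The cytokine, chemokine and NF-kappaB list had a peak at 22 of 25, led by Il6st, the shared receptor of the IL-6 family (145), Nfkb2 (135), Tnfaip3, an NF-kappaB inhibitor (134), Nfkbiz, an atypical I-kappaB gene (118), and Osmr (112). Cxcl14, Ccl19 and Cxcl5 had none. Receptor tyrosine kinases had one at 19 of 21. They were led by Ddr2, a collagen receptor, with 14 peaks and a pileup of 125, Erbb3 (101), Axl (87), Igf1r (74) and Fgfr1 (68). All peaks at Erbb3 lay in the 10 kb flanks, and Erbb4 and Kit had none. Mesenchymal transcription factors had one at 25 of 27, with Tbx2 (111), Snai1 (100), Gli1 (98), Nfia (94) and Nfib (93) highest and none at Twist1 and Scx. Cell cycle and p53 genes had one at 19 of 22, led by Cdk4 (222), Cdk2 (126), Ccnd3 (107), Ccne1 (99) and Ccna2 (98), with none at Ccnd1, Cdk6 and Cdkn2a.

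The marker lists bear on the label of the cells, although a peak is no measure of expression. Markers of alveolar fibroblasts had a peak at 18 of 20 genes and those of adventitial fibroblasts at 16 of 18. Genes of their length had one in 66.1% and 68.9% of cases. For the marker lists that follow, that share ran from 60.4% to 69.1%. Within 1 kb of a gene end, 10 alveolar and 10 adventitial genes had a peak, beside 47.2% of all coding genes. At a fold of 5 or more, 9 and 11 had one, beside 49.5% of all coding genes. Alveolar markers were led by Mfap4 (82), Macf1 (76), Tcf21 (57), Gyg (55) and Limch1 (51), with none at Fgf10 and Plin2. Adventitial markers were led by Has1, a hyaluronan synthase (183, fold 22.7), Gli1 (98), Dpt (59), Il33 (47) and Col14a1 (46), with none at Dpp4 and Serpinf1. Markers of fibrotic fibroblasts had a peak at 7 of 17, led by Ltbp2 (101), Pmepa1 (65), Sfrp1 (47), Col12a1 (41) and Adam12 (30). Endothelial markers had one at 6 of 15, myeloid markers at 5 of 15 and lymphocyte markers at 5 of 13. Lung epithelium markers had one at 7 of 17 and mesothelium markers at 0 of 6. Pericyte and smooth muscle markers had one at 6 of 10 (60.0%), close to the 62.3% of all coding genes. The list of other organs' genes had 7 of 17, a share within the range of the other lung cell lists, which ran up to 6 of 10 and down to 0 of 6. Some genes on these lists had at least 1 peak in the gene itself. Among them, Cd68, a macrophage marker, had 2 of its 6 peaks there. Muc1, an epithelial mucin, and Lck, a lymphocyte kinase, had 1 of 2 each. The highest pileups in their windows were 147 at Cd68, the highest of the myeloid list, 83 at Muc1 and 80 at Lck. Like all list pileups here, these can belong to a peak in the 10 kb flanks. They were above the highest pileups of most alveolar and adventitial markers named here. At Fcer1g (103), Cd14 (77) and Ager (103) all peaks lay in the 10 kb flanks.

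**Figure D5:**
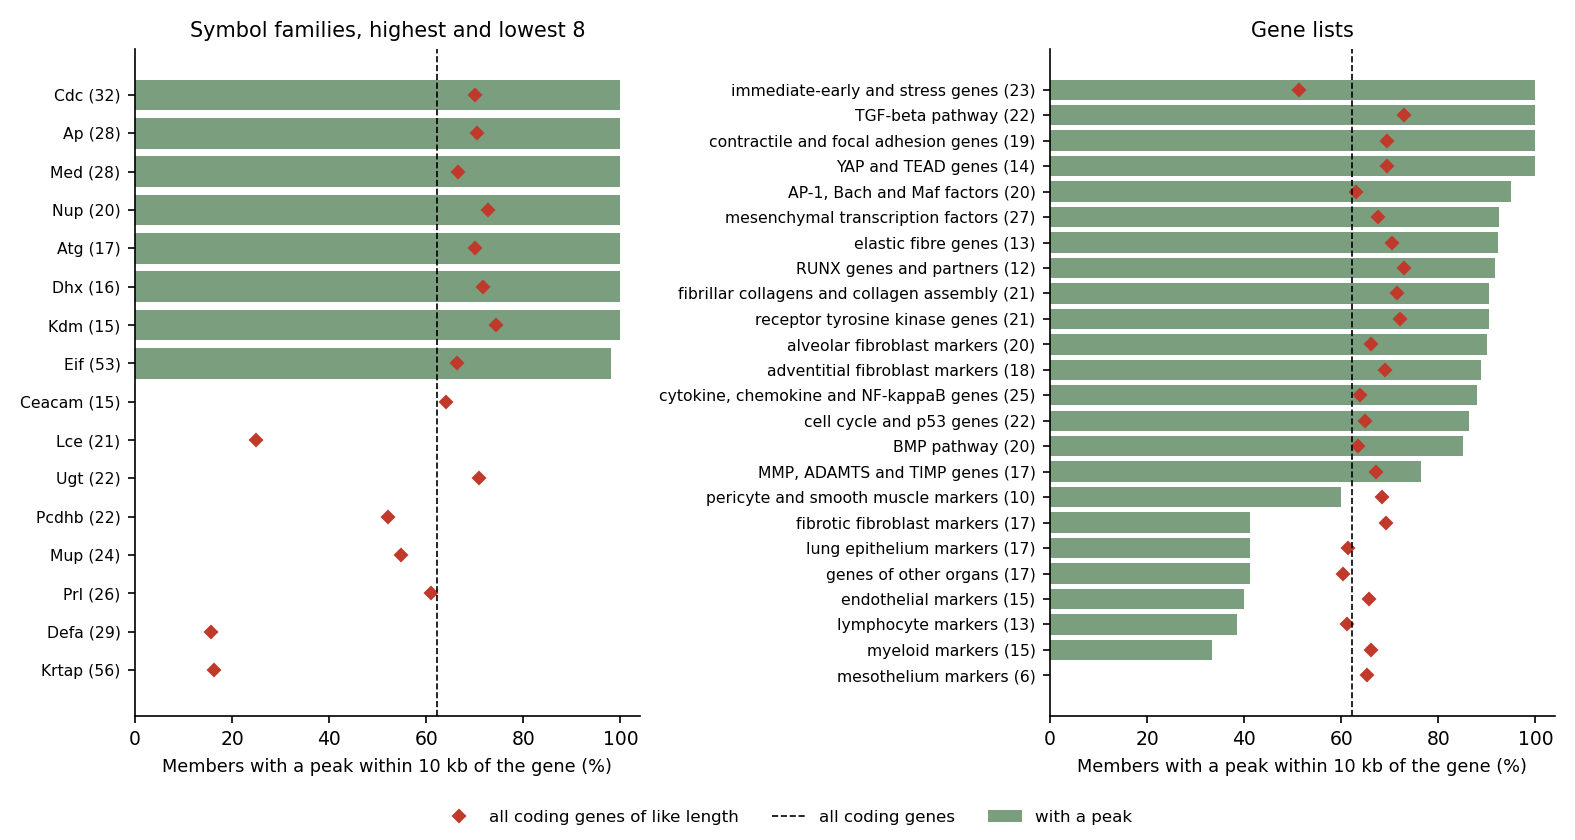
Share of members with a sham Runx1 peak in the gene or within 10 kb (x axis, percent), for the 8 highest and 8 lowest symbol families (left) and the 24 gene lists (right), with the number of genes in brackets. Bars give the share, diamonds the share among coding genes of like length, and the dashed line the 62.3% of all coding genes. The 8 lowest families have no bar, and 16 lists reach past the line.

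Beyond coding genes, biotypes differed widely when a window of 1 kb either side was used, a count made after the coding genes were seen. A peak met 55.3% of coding genes, 39.4% of tRNA genes (154 of 391, 95% Wilson interval 34.7 to 44.3%), 23.3% of lncRNA genes, 11.3% of miRNA genes, 5.59% of snRNA genes, 5.05% of snoRNA genes and 1.81% of pseudogenes. None of 394 variable gene segments of immune receptors had one. These shares were not matched for gene length. Median lengths were 17.5 kb for coding genes, 8.39 kb for lncRNA genes and 0.904 kb for pseudogenes. For tRNA, miRNA, snRNA and snoRNA genes they ran from 0.073 to 0.13 kb. The interval for tRNA genes treats each gene as separate, although neighbouring genes can share a peak. Of the miRNA genes, Mir7671 (pileup 190), inside the cluster at Irf1, and Mir22 (171) had the highest peaks.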

How the data were processed

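The deposited sham peak list was made by the authors with MACS 2.0.10.20120913 on build mm10 against the sham input, per the file headers, which give the q-value cutoff as 0.01, the genome size as 1.87 Gb, local background windows of 1 and 10 kb, and scaling of the larger set to the smaller. BWA, SAMtools and MACS2 are named in the submitters' processing notes; the sources do not give alignment settings. Its columns, per the file headers, are position, summit, pileup signal (whole numbers as deposited), −log10 p-value, −log10 q-value and fold enrichment over local background. These peak values are the authors' own and were used only to describe and rank peaks within this list.

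Gene positions came from RefSeq (GRCm38.p6); gene starts and strand came from its promoter table, which lacks some genes and chromosome 18. Peaks were counted in each gene and 10 kb either side, and the pileup of a list member is the highest in that window. Clusters were runs of 3 or more peaks with gaps of 10 kb or less. "Genes of the same length" are the coding genes of the same 10 length groups. Families share the letters before the first digit of the symbol. Gene models without a proper name (such as Gm, LOC or Rik symbols) were left out of families and of the nearest coding genes of top sites. Of 411 listed genes, 409 were matched; the others lie on X. Genes were named by rank (the 15 highest pileups, 5 highest folds, 5 widest peaks, 5 largest clusters, 10 genes with most peaks, up to 5 highest members per list, and members without a peak where these were 8 or fewer); names beyond this were chosen after their values were seen. The members and lists were chosen with earlier results of these data known. Computation used Python 3.11.15, pandas 2.3.3 and scipy 1.17.1, and the counting code was tested on simulated data. No test was made, since each condition has 1 library. Some items among the named ranks are not reported here.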

Additional observations from a re-analysis of the deposited data

Results flagged for a closer look

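Outside chromosomes 1 to 19, the sham list held 441 peaks on chromosome X, which the descriptions above leave out. Their median pileup was 33 and the highest 126, and their folds ran from 2.31 to 18.2 with a median of 5.97. The list also held 7 mitochondrial peaks, with pileups of 2125 to 3705 and folds of 1.13 to 1.34. It held 0 peaks on chromosome Y.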

How the results depend on the processing

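Counts follow the thresholds. A fold of 5 or more left 12710 of the 24611 peaks, with a median width of 490 bp, 54.7% within 1 kb of a gene end and 49.5% of coding genes with a peak. A −log10 q of 5 or more gave a median width of 386 bp, 47.9% with a neighbour, 46.4% within 1 kb of a gene end and 60.8% of coding genes. Merging peaks under 500 bp apart gave 387 bp and 42.4% with a neighbour. A gap of 5 kb gave 40.3% with a neighbour and one of 25 kb 70.9%. Gene ends within 2.5 kb took 54.2% of summits, coding genes alone 38.7%, and any base of the peak 46.2%. Counting only the gene body gave 53.6% of coding genes, and only 1 kb of either end 47.2%. Of the 15 sites of highest pileup, 4 were also among the 15 of highest fold and 8 among the 15 of highest −log10 q. Leaving out clusters of 10 or more peaks, an alternative chosen after seeing the data, kept the median width at 360 bp, the share near gene ends at 44.7% and the share of coding genes at 61.8%. By peaks within 1 kb of gene ends, the MMP, ADAMTS and TIMP list fell below the share of all coding genes, and at a fold of 5 or more the alveolar fibroblast list did. Of the 151 families, 11 and 6 changed side of that share. No paired analysis was possible because each condition has 1 ChIP library. With 1 library, no value carries a biological error, and a site without a peak is one not called at this depth, not one shown to be unbound.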
